A study of Mus musculus with 6 samples.

Results

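The genes described here take iron into the cell, move it between compartments, store it, export it and recover it from haem. They are the 9 rows of the deposited count table with the symbols Tfrc, Slc11a2, Slc11a1, Slc40a1, Fth1, Ftl1, Ireb2, Hmox1 and Blvrb, chosen by name from 24421 gene rows. All 9 passed the filter on low counts. RNA from monocytes sorted out of the bone marrow of B6 mice was sequenced in 6 libraries, 3 labelled as given GM-CSF (5 ng, 3 h) and 3 labelled as control. GM-CSF is a cytokine that acts on myeloid cells through its own receptor. The labels name no engineered allele, transgene, sex or age, and do not say how many mice were used or whether animals were pooled. The control label speaks of newly isolated cells, whereas the treatment text names medium with or without the cytokine, so whether the control cells also spent 3 h in medium is not settled by these labels. If they did not, culture and GM-CSF cannot be told apart in any difference below. Nothing states that replicates came from separate animals, so p-values measure the spread between these libraries, which may be technical.

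Iron bound to transferrin enters a cell through the transferrin receptor, is released in endosomes and crosses the membrane through metal transporters. Iron that is not used is stored inside ferritin, a shell of heavy and light chains, or leaves through ferroportin, the known cellular iron exporter. Haem oxygenase opens the haem ring, which frees its iron and gives biliverdin, and macrophages of spleen, liver and marrow use this route to recycle iron from aged red cells. Iron regulatory proteins bind a short hairpin, the iron-responsive element, when iron is scarce. Binding before the coding region blocks translation, and binding after it protects the transferrin receptor messenger from decay.

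The iron-responsive hairpins of these genes are shown because they divide the group into messengers with the element before the coding region, after it, or not at all. They were read from the GENCODE M21 annotation on GRCm38, the assembly also named mm10. The search asked for an unpaired C, 5 paired bases, a loop that reads CAGTG followed by any base but G, and 5 bases that pair back, with G-T pairs allowed. Capitals mark the unpaired C and the loop. Each coordinate gives the 17 bases from the unpaired C to the end of the stem, and 6 bases on either side are printed too. Sequences are the transcribed strand written as DNA.

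Fth1, 5′ UTR, chr19:9982738-9982754, plus strand: ttcctgCttcaaCAGTGCttgaacggaac
Ftl1, 5′ UTR, chr7:45459785-45459801, minus strand: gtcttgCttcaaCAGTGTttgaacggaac
Slc40a1, 5′ UTR, chr1:45925471-45925487, minus strand: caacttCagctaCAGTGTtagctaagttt
Tfrc, 3′ UTR, chr16:32631225-32631241, plus strand: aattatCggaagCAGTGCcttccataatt
Tfrc, 3′ UTR, chr16:32631604-32631620, plus strand: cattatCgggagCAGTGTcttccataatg
Tfrc, 3′ UTR, chr16:32631669-32631685, plus strand: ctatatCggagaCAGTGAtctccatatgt
Tfrc, 3′ UTR, chr16:32631716-32631732, plus strand: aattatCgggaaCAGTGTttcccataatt
Slc11a2, 3′ UTR, chr15:100395159-100395175, minus strand, 1 mismatched pair: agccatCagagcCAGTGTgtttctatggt

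With no mismatched pair the hairpin was found in the 5′ UTR of 23 of 20597 genes (0.112%) and in the 3′ UTR of 100 of 20995 genes (0.476%). With 1 mismatched pair allowed, the form that takes in Slc11a2, these shares were 0.694% and 3.16%. No hairpin of either form was found in the UTRs of Slc11a1, Hmox1, Ireb2 or Blvrb. Counts per gene do not separate transcripts, so the Slc11a2 form that carries the hairpin cannot be told from the form that lacks it. Read counts also do not measure translation, which is the step that the 5′ hairpins act on.

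Of the 9 genes, 4 were higher with GM-CSF, 2 were lower and 3 did not pass the test (edgeR's quasi-likelihood test, two-sided, with p-values adjusted by Benjamini and Hochberg over 11731 genes, threshold 0.05). Messengers of the transferrin receptor and of both ferritin chains rose, with Slc11a2, while those of ferroportin and Slc11a1 fell. Change was common in these libraries. Over all genes tested 64.0% were called, 32.8% higher and 31.2% lower, so 6 calls among 9 genes lies near the background. The groups did not overlap in CPM, read counts scaled to the total gene reads of the library, for 6 of the 9 genes, beside 69.5% of all genes tested. The median log2 fold change was 0.07 over the 9 genes and 0.01 over all genes. In bulk RNA, fewer cells of a type and less RNA per cell cannot be told apart.

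**Figure D1:**
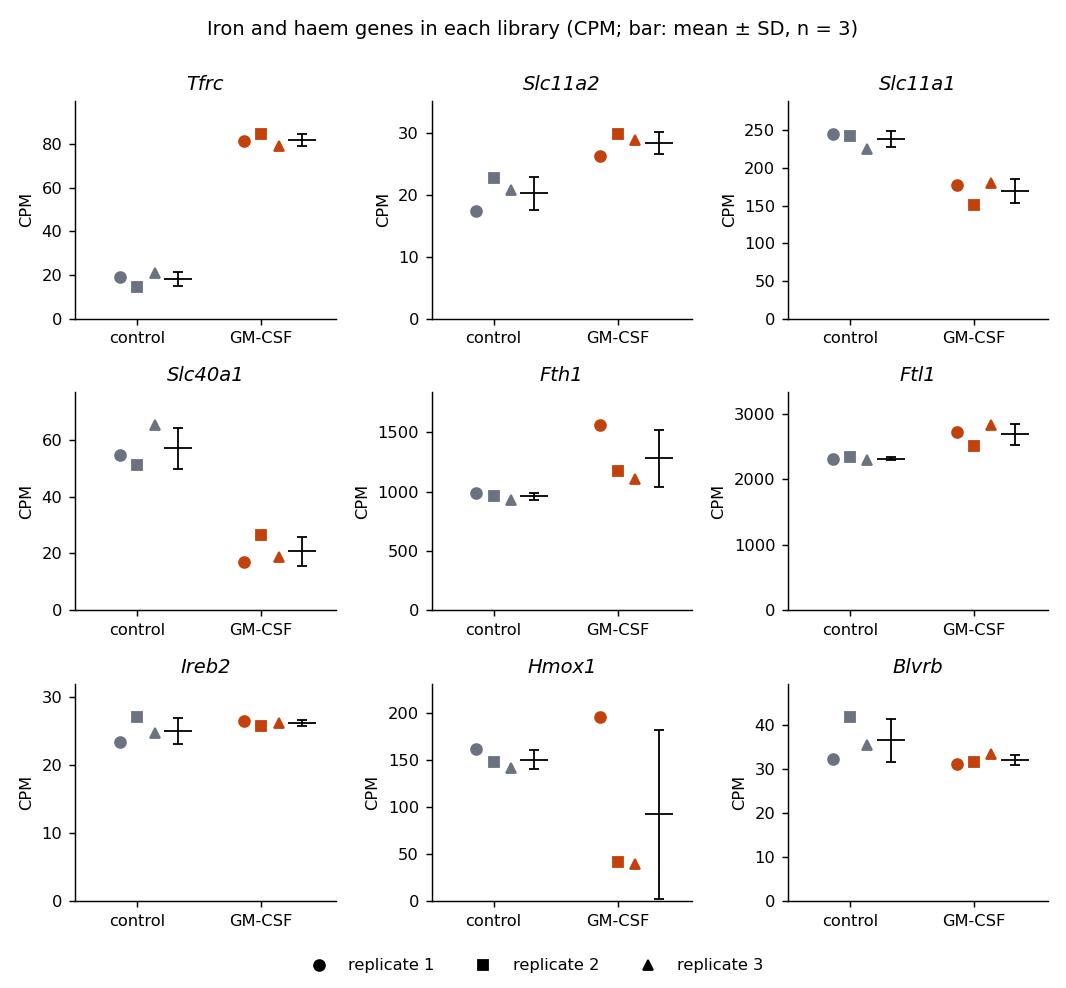
CPM of each of the 9 genes in the 3 control and the 3 GM-CSF libraries, with the group mean ± SD beside the points and symbols for replicates 1 to 3. Tfrc, Slc11a2, Fth1 and Ftl1 lie higher with GM-CSF in every library, Slc11a1 and Slc40a1 lie lower, and for Hmox1 GM-CSF replicate 1 at 196 CPM lies above all controls while replicates 2 and 3 lie far below them.

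The libraries held 16643228 to 25232956 gene reads, at which 3 reads, the limit that a count of 0 allows, equal 0.119 to 0.180 CPM. Replicates differed by more than sampling noise in every pair. Monocyte markers summed to 30228 to 32951 CPM with GM-CSF and 65850 to 75171 CPM in the controls. All 10 had a mean of at least 1 CPM, 7 were lower, and Csf1r, Itgam and Ms4a4c were not called. Lyz2 made up most of the sum, and without it the markers summed to 9851 to 10655 CPM with GM-CSF and 15002 to 16426 CPM in the controls. Of the 12 erythroid markers found, the 4 haemoglobin rows were at 0 reads in every library. Reads without a unique position were not counted, and whether that emptied these rows was not tested. The other erythroid markers summed to 0.421 to 4.23 CPM with GM-CSF and 4.33 to 5.98 CPM in the controls. Of the GM-CSF libraries, replicate 1 had the highest sum. Markers of marrow macrophages, the recycling cells, summed to 82.9 to 93.9 CPM with GM-CSF and 100.2 to 126.8 CPM in the controls, led by Vcam1. Of the 8 macrophage markers tested, Siglec1 was lower (log2 fold change -3.04 ± 0.30 SE, edgeR adjusted p = 5.78e-06), Mertk was higher (2.17 ± 0.37 SE, edgeR adjusted p = 4.08e-04) and 6 were not called, so the list had no common direction. Neutrophil and precursor markers, led by Mpo, summed to 10829 to 13654 CPM with GM-CSF and 16018 to 21132 CPM in the controls, with 5 of 10 tested lower, 1 higher and 4 not called. The part of these lists in the results was not tested. B cell (Cd79b), T and NK cell (Nkg7), megakaryocyte (Pf4), basophil (Prss34) and plasmacytoid dendritic cell (Bst2) markers summed to at most 232.9 CPM in any library, each list named with its most abundant gene. All 4 tested plasmacytoid dendritic cell markers were lower, at sums of 56.6 to 60.0 CPM with GM-CSF and 105.7 to 112.6 CPM in the controls. Of tested markers, 3 of 7 for B cells and 2 of 5 for megakaryocytes were lower, and 2 of 4 for basophils were higher. The rest of these lists was not called, and their part in the results was not tested either.

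Tfrc, on chromosome 16 from 32608920 to 32632794 (plus strand), encodes the transferrin receptor. It read 81.6, 84.7 and 79.1 CPM in GM-CSF replicates 1, 2 and 3 and 19.0, 14.6 and 21.0 CPM in control replicates 1, 2 and 3. Every GM-CSF library lay far above every control, and the spread within each group was small beside the gap. The mean rose from 18.2 ± 3.27 to 81.8 ± 2.79 CPM (SD, n = 3 each), a log2 fold change of 2.18 ± 0.12 (SE, edgeR adjusted p = 8.72e-08), or 4.52-fold. This was the change of greatest size among the 9 genes under the test and each of its 16 alternatives, which gave 2.04 to 2.27. The 4 hairpins shown above lie in the 3′ UTR of this messenger.

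Slc11a2 and Slc11a1 are paralogs that carry divalent metals across membranes, and they moved in opposite directions. Slc11a2 (DMT1), on chromosome 15 from 100387898 to 100425072 (minus strand), passes iron out of the transferrin endosome. It read 26.3, 29.9 and 28.9 CPM with GM-CSF and 17.5, 22.7 and 20.7 CPM in the controls. The groups did not overlap, although GM-CSF replicate 1 and control replicate 2 were only a few CPM apart. It rose by 0.49 ± 0.12 on the log2 scale (SE, edgeR adjusted p = 0.00416), or 1.40-fold higher.

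Slc11a1 (NRAMP1), on chromosome 1 from 74375195 to 74386062 (plus strand), draws metal out of the phagosome of myeloid cells and is known for its part in resistance to intracellular bacteria. It read 177, 151 and 180 CPM with GM-CSF and 245, 243 and 226 CPM in the controls. All GM-CSF libraries lay below all controls. It fell by 0.48 ± 0.09 on the log2 scale (SE, edgeR adjusted p = 5.88e-04), and was 1.40-fold lower. Within a library there were 6.72, 5.06 and 6.20 Slc11a1 reads for each Slc11a2 read with GM-CSF, and 14.01, 10.7 and 10.9 in the controls. The ratio was lower in all 3 GM-CSF libraries, with a log2 ratio of 2.57 ± 0.21 (SD, n = 3) against 3.56 ± 0.22 (SD, n = 3) and an exact two-sided permutation p of 0.1. That is the smallest p that 3 against 3 libraries can give, so this design cannot pass 0.05 for a single ratio.

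Slc40a1, on chromosome 1 from 45908068 to 45926523 (minus strand), encodes ferroportin. It read 17.1, 26.6 and 18.6 CPM with GM-CSF and 54.8, 51.2 and 65.2 CPM in the controls. The highest GM-CSF library was still below the lowest control. In reads, the counts were 287, 442 and 400 with GM-CSF and 1314, 1292 and 1355 in the controls. The mean fell from 57.1 ± 7.27 to 20.8 ± 5.07 CPM (SD, n = 3 each), a log2 fold change of -1.45 ± 0.15 (SE, edgeR adjusted p = 1.06e-05), or 2.74-fold lower. Marrow macrophages are known for high ferroportin. Of their markers Siglec1 fell, Mertk rose and the most abundant, Vcam1, was not called (-0.26 ± 0.12 SE, edgeR adjusted p = 0.0767), and their part in the fall of Slc40a1 was not tested.

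Set against each other within a library, the importer and the exporter changed places. There were 4.77, 3.19 and 4.24 Tfrc reads for each Slc40a1 read with GM-CSF, and 0.347, 0.286 and 0.323 in the controls. Every GM-CSF library was above 1 and every control below 1. The log2 ratio was 2.00 ± 0.30 (SD, n = 3) with GM-CSF and -1.65 ± 0.14 (SD, n = 3) in the controls, a difference of 3.66 with an exact two-sided permutation p of 0.1 (0.15 adjusted over the 3 ratios computed). Reads are not corrected for transcript length in this ratio, so the value 1 is not equal molar abundance, but the length is the same in all libraries. Per kilobase of principal transcript the means crossed too, with Tfrc at 3.73 ± 0.669 and Slc40a1 at 16.9 ± 2.16 CPM per kb in the controls and 16.7 ± 0.570 and 6.16 ± 1.51 CPM per kb with GM-CSF (SD, n = 3).

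**Figure D2:**
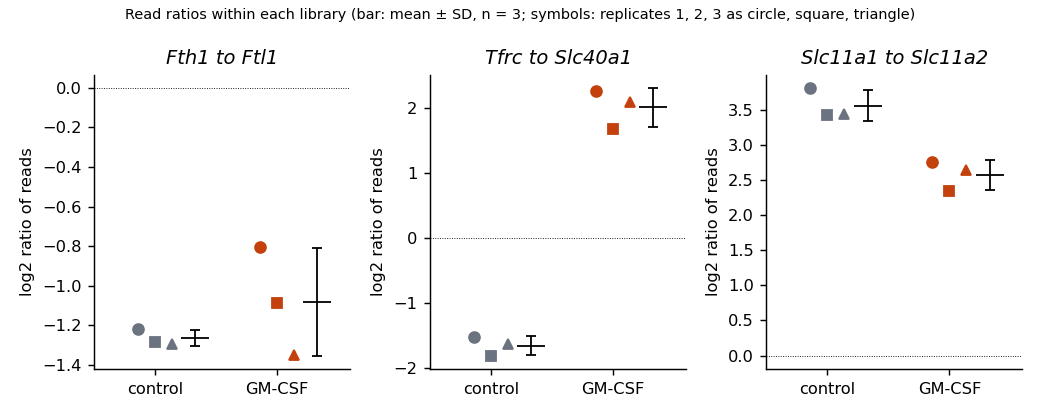
Log2 ratio of reads within each library for Fth1 to Ftl1, Tfrc to Slc40a1 and Slc11a1 to Slc11a2, with group mean ± SD (n = 3) and symbols for replicates 1 to 3. The Tfrc to Slc40a1 ratio is above 0 in all GM-CSF libraries and below 0 in all controls, the Slc11a1 to Slc11a2 ratio is lower in all GM-CSF libraries, and the Fth1 to Ftl1 ratio overlaps between groups.

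The ferritin chains were the most abundant of the 9 messengers and made up 85.6% to 85.8% of the reads of the 9 genes in the controls and 88.5% to 90.7% with GM-CSF. Fth1, on chromosome 19 from 9980598 to 9985098 (plus strand), encodes the heavy chain, which oxidises iron as it enters the shell. It read 1558, 1175 and 1107 CPM with GM-CSF and 989, 958 and 932 CPM in the controls. The groups did not overlap, and GM-CSF replicate 1 stood above the other two. The rise was 0.42 ± 0.12 on the log2 scale (SE, edgeR adjusted p = 0.00994), or 1.34-fold higher. Without GM-CSF replicate 1 it was 0.25 ± 0.08 (SE, edgeR adjusted p = 0.0176), a smaller rise that was still called.

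Ftl1, on chromosome 7 from 45457944 to 45459884 (minus strand), encodes the light chain, which helps the iron core to form. It read 2724, 2499 and 2819 CPM with GM-CSF and 2304, 2334 and 2287 CPM in the controls. All GM-CSF libraries lay above all controls, by a small margin. It rose by 0.22 ± 0.08 on the log2 scale (SE, edgeR adjusted p = 0.0292), or 1.17-fold higher. This call was lost with upper quartile scaling, at 0.11 (edgeR adjusted p = 0.247), which lowered the median of all genes by 0.12. Set against that median, Ftl1 was at 0.22 with either scaling. It was also lost, with edgeR adjusted p of 0.0591 to 0.0843, on leaving out GM-CSF replicate 1 (0.20), GM-CSF replicate 3 (0.19), or control replicate 1 (0.23), 2 (0.23) or 3 (0.20).

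Ftl1 has many near-identical copies in the mouse genome. Of the 919 windows of 50 bases in its longest coding transcript, 78.9% were also present in a transcript of another of 15 genes, among them Ftl1-ps1 and Ftl2-ps. For Fth1 the share was 4.01%. Reads without a unique position were not counted, so the level of Ftl1 and any ratio with it are uncertain. The summary row for alignments that were not unique equalled 18.03% to 19.6% of gene reads and summary rows together per library. It is named for alignments, so it need not be the share of reads lost. For each Ftl1 read there were 0.572, 0.470 and 0.393 Fth1 reads with GM-CSF and 0.429, 0.411 and 0.407 in the controls. GM-CSF replicate 3 was below all controls and the other two were above them, and the log2 ratios of -1.08 ± 0.27 and -1.27 ± 0.04 (SD, n = 3 each) did not pass an exact two-sided permutation test (p = 0.4).

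Ireb2, on chromosome 9 from 54863789 to 54912530 (plus strand), encodes iron regulatory protein 2, which is controlled in cells largely through breakdown of the protein. It read 26.5, 25.7 and 26.2 CPM with GM-CSF and 23.3, 27.1 and 24.6 CPM in the controls. The groups overlapped, with all GM-CSF libraries inside the range of the controls. The log2 fold change was 0.07 ± 0.10 (SE, edgeR adjusted p = 0.575), with an approximate 95% interval of -0.13 to 0.27.

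Hmox1, on chromosome 8 from 75093621 to 75100589 (plus strand), encodes the inducible haem oxygenase. It read 196, 42.0 and 39.3 CPM in GM-CSF replicates 1, 2 and 3 and 162, 148 and 142 CPM in the controls. GM-CSF replicates 2 and 3 lay far below every control and replicate 1 lay above every control. In reads, these were 3296, 699 and 843 with GM-CSF and 3899, 3735 and 2953 in the controls, so the gap is far beyond counting error. The log2 fold change was -0.70 ± 0.49 (SE, edgeR adjusted p = 0.234, approximate 95% interval -1.65 to 0.26), which did not pass the test. Without GM-CSF replicate 1 it was -1.90 ± 0.10 (SE, edgeR adjusted p = 1.89e-08), and limma-voom gave -1.16 with all 6 (limma adjusted p = 0.0372). The call for Hmox1 thus differed between fits, while the sign was negative in each of the 16 alternatives.

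GM-CSF replicate 1 was compared with its replicates over 8091 tested genes with a mean above 10 CPM in the GM-CSF group, a comparison chosen after its Hmox1 value was seen. Hmox1 ranked 1 of them, at 4.68-fold above the higher of replicates 2 and 3. Fth1 ranked 71 (1.33-fold). The other 7 genes lay between 0.644-fold (Slc40a1, rank 7817) and 1.01-fold (Ireb2, rank 2021). Slc40a1 read 17.1 CPM in replicate 1, close to 18.6 CPM in replicate 3, whereas replicate 2 stood higher at 26.6 CPM. The comparison picks out genes above both other libraries, so the low rank of Slc40a1 does not set replicate 1 apart. Among the erythroid markers the summed level was 4.23 CPM in this library, of which 2.68 CPM was Car1. In replicates 2 and 3 it was 0.421 and 0.699 CPM. All haemoglobin rows were at 0, which does not show that red-cell RNA was absent. The part of erythroid cells in the Hmox1 value was not tested.

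**Figure D3:**
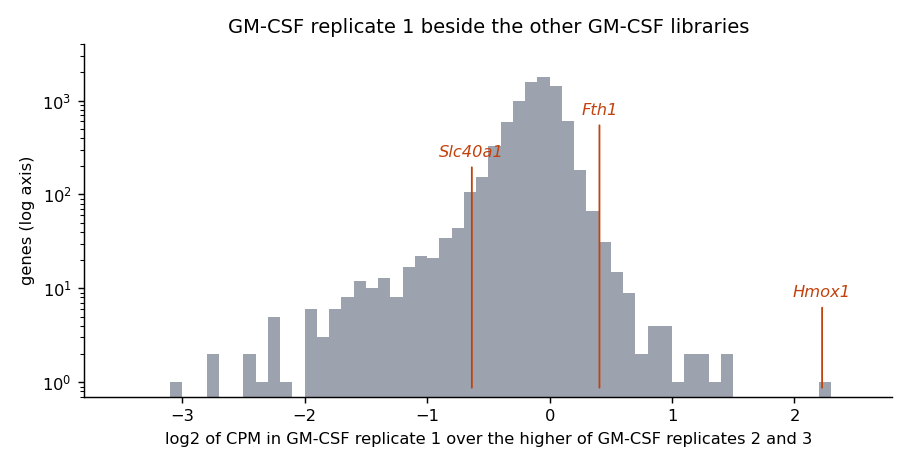
Histogram, with a log vertical axis, of the log2 ratio of CPM in GM-CSF replicate 1 to the higher of GM-CSF replicates 2 and 3 over 8091 genes, with Hmox1, Fth1 and Slc40a1 marked. Hmox1 stands alone at the right end at 2.23, Fth1 lies on the upper slope at 0.41 and Slc40a1 on the lower slope at -0.63. For Slc40a1 the higher library was replicate 2, and replicates 1 and 3 were close.

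Blvrb, on chromosome 7 from 27447978 to 27466144 (plus strand), encodes biliverdin reductase B, an enzyme that also reduces flavins. It read 31.1, 31.5 and 33.3 CPM with GM-CSF and 32.1, 41.8 and 35.4 CPM in the controls. The groups overlapped through GM-CSF replicate 3 and control replicate 1. The log2 fold change was -0.18 ± 0.11 (SE, edgeR adjusted p = 0.174), and upper quartile scaling gave -0.30 with a call (edgeR adjusted p = 0.0345). Set against the median of all genes, the value was -0.19 with either scaling.

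**Figure D4:**
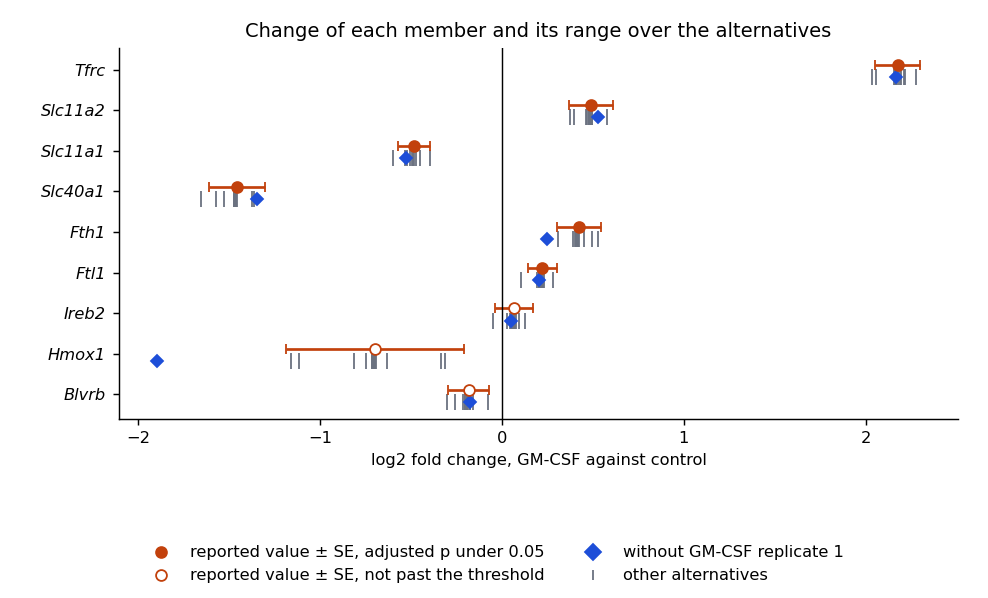
Log2 fold change of GM-CSF against control for each of the 9 genes with its SE (filled circles: edgeR adjusted p under 0.05), the values under the alternatives as ticks and the value without GM-CSF replicate 1 as a diamond. Tfrc stays between 2.04 and 2.27 and Slc40a1 between -1.65 and -1.34 under the alternatives, whereas Hmox1 runs from -1.90 without GM-CSF replicate 1 to -0.31.

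Levels of different genes are compared here in CPM per kilobase of the transcript that the annotation marks as principal. In the controls the order was Ftl1 at 2384 ± 24.4, Fth1 at 642 ± 19.2, Slc11a1 at 103 ± 4.58, Hmox1 at 96.2 ± 6.69, Blvrb at 35.4 ± 4.77, Slc40a1 at 16.9 ± 2.16, Slc11a2 at 6.71 ± 0.876, Ireb2 at 4.34 ± 0.328 and Tfrc at 3.73 ± 0.669 CPM per kb (SD, n = 3). Slc11a1 and Hmox1 did not differ there beyond their spread, nor did Ireb2 and Tfrc. With GM-CSF the first 2 places were the same, with Ftl1 at 2769 ± 170 and Fth1 at 857 ± 163 CPM per kb (SD, n = 3). Tfrc moved from the last place to the sixth and Slc40a1 from the sixth to the eighth, above Ireb2 at 4.53 ± 0.0753 CPM per kb (SD, n = 3). Hmox1, at 59.0 ± 57.3 CPM per kb (SD, n = 3), could not be placed among its neighbours. The 9 genes together took 0.375% to 0.385% of gene reads in the controls and 0.407% to 0.484% with GM-CSF.

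The wider pathway was read from 9 lists by role, 93 genes in all with the 9 above, of which 79 passed the filter. Of these, 27 were higher, 32 were lower and 20 did not pass, with a median log2 fold change of -0.01 beside 0.01 for all genes. By role, genes of transcriptional control were called higher more often than lower (9 and 2), and genes of haem synthesis (1 and 6) and of haem scavenging and transport (1 and 6) lower more often than higher. Every count below is read against 32.8% higher and 31.2% lower among all genes. Genes were named by size of change within each role, and Ncoa4, Fbxl5, Blvra, Hp, Lrp1, Slc48a1, Mfsd7b, Fech, Uros, Ppox, Alad, Cpox, Alas2, Tmem14c, Cisd2, Slc25a37, Slc25a28, Nfe2l2, Bach1, Mafk, Mafg, Spic and the untested Hamp, Cp and Heph were added for their roles after their values were seen. Bola3 was added for its hairpin, also after its value was seen.

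**Figure D5:**
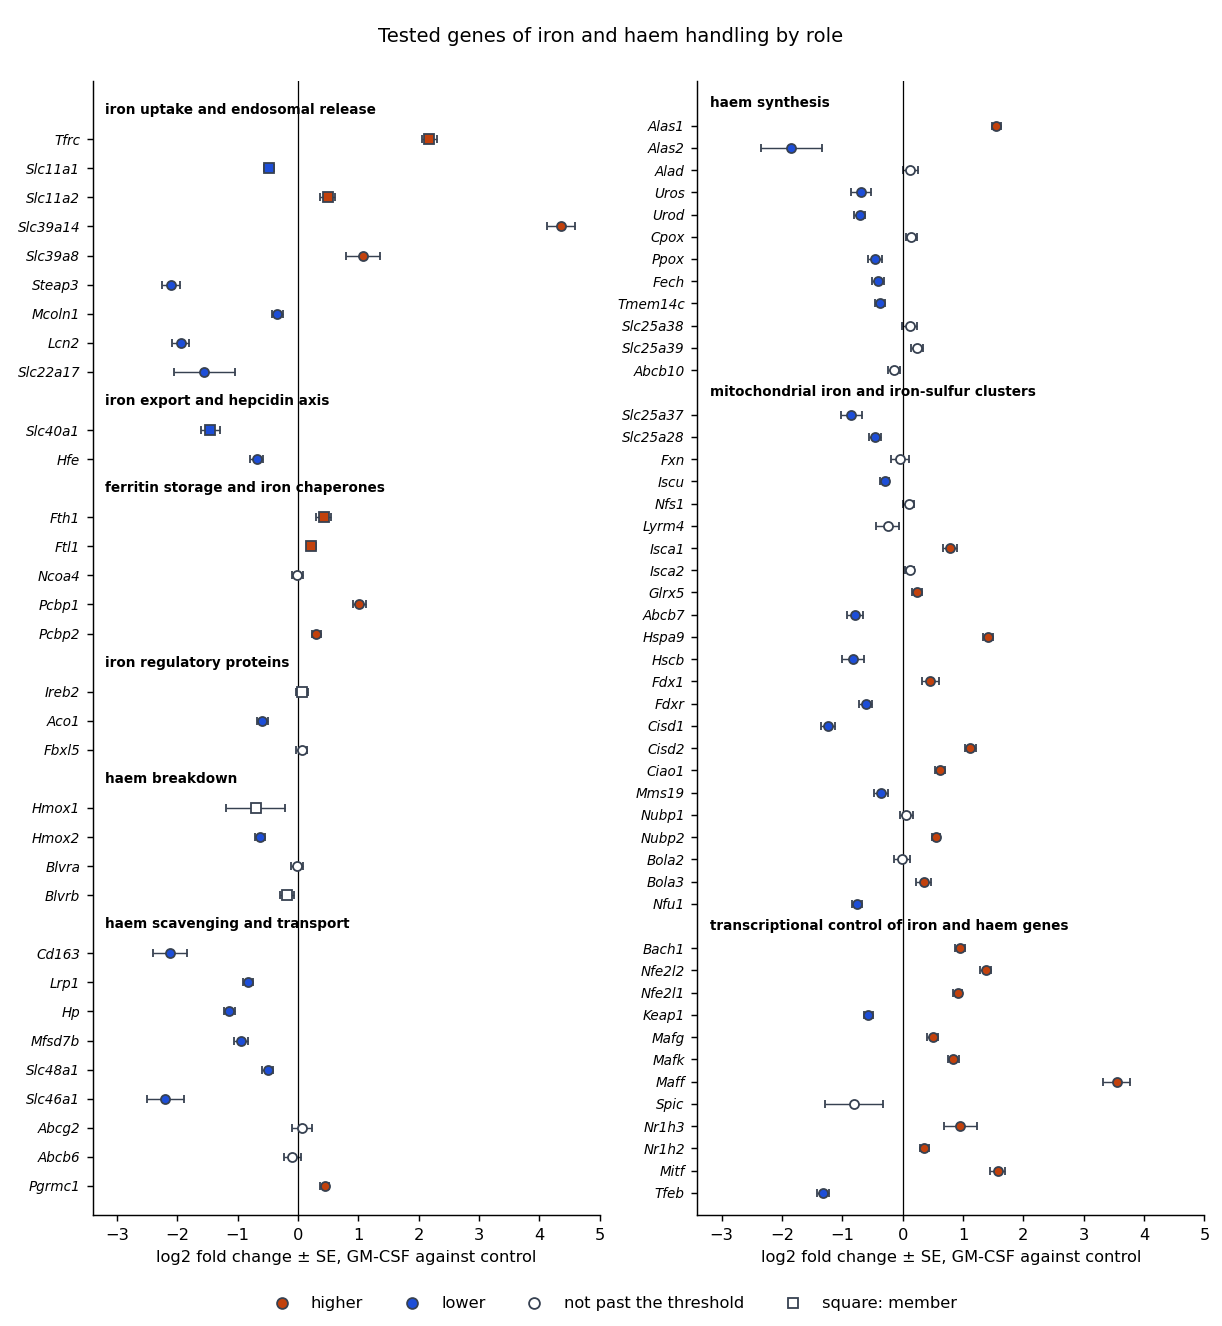
Log2 fold change ± SE of GM-CSF against control for the 79 tested genes of iron and haem handling, grouped by role, with squares for the 9 genes described first and open symbols for genes that did not pass the test. Slc39a14 at 4.36 and Maff at 3.54 lie farthest to the right, and Slc46a1, Cd163 and Steap3 lie below -2.

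Among 14 genes of iron uptake and endosomal release, 9 were tested, 4 were higher and 5 were lower. Slc39a14 (ZIP14), an importer of iron that is not bound to transferrin, read 20.8, 16.3 and 17.7 CPM with GM-CSF and between 0.594 and 1.11 CPM in the 3 controls. It rose by 4.36 ± 0.23 on the log2 scale (SE, edgeR adjusted p = 4.90e-08), the largest log2 fold change of the 79 genes. Its relative Slc39a8 (ZIP8) rose by 1.08 ± 0.28 (SE, edgeR adjusted p = 0.00594). Steap3, the reductase that prepares endosomal iron for transport, read 3.93, 5.41 and 4.75 CPM with GM-CSF and 20.1, 19.6 and 21.4 CPM in the controls. It fell by 2.11 ± 0.15 on the log2 scale (SE, edgeR adjusted p = 4.22e-07), so the transferrin route held a gene that rose, Tfrc, and a gene that fell, Steap3.

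The other uptake genes that were lower were Mcoln1, Lcn2 and Slc22a17. Mcoln1, a channel that lets iron out of late endosomes and lysosomes, had a log2 fold change of -0.35 ± 0.09 (SE, edgeR adjusted p = 0.00645). Lcn2, a secreted protein that binds the iron carriers of bacteria, read 202, 279 and 273 CPM with GM-CSF and 941, 804 and 1171 CPM in the controls, a log2 fold change of -1.94 ± 0.15 (SE, edgeR adjusted p = 7.01e-07). Lcn2 is a granule gene of neutrophil precursors, and of the 10 tested markers of those cells Mmp8, Camp, Ngp, Ltf and Cxcr2 fell too, with log2 fold changes of -1.61, -1.43, -1.25, -0.90 and -0.69. Ctsg rose by 0.31 (edgeR adjusted p = 0.0142), and Mpo, Elane, Prtn3 and Retnlg were not called. Their part in the fall of Lcn2 was not tested. Slc22a17, the Lcn2 receptor, had 15 reads in the GM-CSF libraries and 58 in the controls, and its call (-1.55 ± 0.51 SE, edgeR adjusted p = 0.0197) was lost without GM-CSF replicate 1 (-1.48), without control replicate 2 (-1.17) and with DESeq2 (-1.57).

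Of 8 genes of export and the hepcidin axis only Slc40a1 and Hfe were tested, and both were lower. Hfe, which binds the transferrin receptor, had a log2 fold change of -0.68 ± 0.10 (SE, edgeR adjusted p = 1.66e-04). Hamp, which encodes hepcidin, the hormone that closes ferroportin, had 0 reads with GM-CSF and 4 reads in the controls. Cp and Heph, the ferroxidases that work with ferroportin, had 36 and 0 reads in all. Neither was detectable above the filter at this depth.

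Of 6 genes of ferritin storage and iron chaperones, 5 were tested, 4 were higher and none was lower. Pcbp1, which delivers iron to ferritin, read 368, 451 and 518 CPM with GM-CSF and 221, 228 and 216 CPM in the controls. It rose by 1.01 ± 0.11 on the log2 scale (SE, edgeR adjusted p = 1.06e-05), more than either ferritin chain. Pcbp2 rose by 0.31 ± 0.08 (SE, edgeR adjusted p = 0.00683), a call lost with upper quartile scaling (0.19). Ncoa4, the receptor that takes ferritin to the lysosome for iron release, had a log2 fold change of -0.01 ± 0.09 (SE, edgeR adjusted p = 0.923).

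Among the iron regulatory proteins Aco1, which is a cytosolic aconitase when it holds an iron-sulfur cluster and binds the hairpins when it does not, read 37.1, 40.0 and 40.1 CPM with GM-CSF and 59.3, 63.0 and 54.9 CPM in the controls. It fell by 0.59 ± 0.09 on the log2 scale (SE, edgeR adjusted p = 1.62e-04). Fbxl5, which marks iron regulatory protein 2 for breakdown when iron is present, had a log2 fold change of 0.06 ± 0.09 (SE, edgeR adjusted p = 0.556), close to that of Ireb2. Of the genes for the hairpin-binding proteins, Aco1 was thus called and Ireb2 was not. A test of the difference between these genes was not made.

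In haem breakdown, Hmox2, the constitutive haem oxygenase, was the gene called of 4. It read 52.9, 54.8 and 55.6 CPM with GM-CSF and 91.1, 80.0 and 83.5 CPM in the controls. It fell by 0.63 ± 0.08 on the log2 scale (SE, edgeR adjusted p = 5.43e-05), and GM-CSF replicate 1 did not stand apart as it did for Hmox1. Blvra, the main biliverdin reductase, had a log2 fold change of -0.01 ± 0.10 (SE, edgeR adjusted p = 0.920).

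Of 11 genes of haem scavenging and transport, 9 were tested, 6 were lower and 1 was higher, with a median log2 fold change of -0.82. Slc46a1, a carrier of haem and folate, fell by 2.20 ± 0.31 on the log2 scale (SE, edgeR adjusted p = 8.15e-05), from 263 reads in the controls to 44 with GM-CSF. Cd163, the macrophage receptor for haemoglobin bound to haptoglobin, read 0.775, 0.961 and 1.26 CPM with GM-CSF and 4.75, 4.56 and 3.95 CPM in the controls. It fell by 2.12 ± 0.28 on the log2 scale (SE, edgeR adjusted p = 5.15e-05). Hp, haptoglobin itself, read 861, 916 and 970 CPM with GM-CSF and 2119, 1825 and 2118 CPM in the controls and fell by 1.14 ± 0.09 on the log2 scale (SE, edgeR adjusted p = 7.89e-07). Hp is also a granule gene of neutrophil precursors, and the marker values given beside Lcn2 stand beside it too. Beside Cd163 stand the macrophage markers, of which Siglec1 fell, Mertk rose and 6 were not called, and their part in its fall was not tested.

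Lrp1, the receptor for haem bound to haemopexin, was lower in the same list, with a log2 fold change of -0.82 ± 0.08 (SE, edgeR adjusted p = 7.07e-06). The carrier of haem out of the lysosome, Slc48a1, was lower by a log2 fold change of -0.50 ± 0.09 (SE, edgeR adjusted p = 4.32e-04). Flvcr1, the haem exporter, which the table lists under its older symbol Mfsd7b, had a log2 fold change of -0.94 ± 0.12 (SE, edgeR adjusted p = 3.31e-05). Pgrmc1, a haem-binding membrane protein, was the gene that rose (0.44 ± 0.08 SE, edgeR adjusted p = 4.31e-04).

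In haem synthesis all 12 genes listed were tested, 1 was higher and 6 were lower. Alas1, which catalyses the first and rate-limiting step outside red cells, read 607, 643 and 646 CPM with GM-CSF and 207, 209 and 234 CPM in the controls. It rose by 1.55 ± 0.07 on the log2 scale (SE, edgeR adjusted p = 1.87e-08), with no overlap and little spread. The later enzymes listed went the other way or were not called, as Urod fell by 0.71 ± 0.09 (SE, edgeR adjusted p = 4.35e-05) and Fech, which inserts the iron, had a log2 fold change of -0.41 ± 0.10 (SE, edgeR adjusted p = 0.00342). Uros and Ppox were lower too, with log2 fold changes of -0.69 and -0.46, while Alad (0.13) and Cpox (0.14) were not called.

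Alas2, the first enzyme of the pathway in red cells, had 14 reads in the GM-CSF libraries and 67 in the controls, a log2 fold change of -1.84 ± 0.51 (SE, edgeR adjusted p = 0.00815). Its 5′ UTR holds a hairpin with no mismatched pair. Erythroid markers were lower in the GM-CSF libraries by the sums given above, and their part in this was not tested. Tmem14c, which moves a haem precursor into the mitochondrial matrix and whose 5′ UTR holds a hairpin with 1 mismatched pair, had a log2 fold change of -0.38 ± 0.08 (SE, edgeR adjusted p = 0.00229).

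The 23 genes of mitochondrial iron and iron-sulfur clusters were all tested, with 8 higher and 9 lower and a median log2 fold change of -0.01. Hspa9, a mitochondrial chaperone that serves cluster transfer, read 347, 326 and 277 CPM with GM-CSF and 118, 118 and 122 CPM in the controls and rose by 1.42 ± 0.09 on the log2 scale (SE, edgeR adjusted p = 1.73e-07). Cisd1, an iron-sulfur protein of the outer mitochondrial membrane, read 28.7, 28.1 and 23.1 CPM with GM-CSF and 65.6, 65.6 and 57.6 CPM in the controls and fell by 1.24 ± 0.11 on the log2 scale (SE, edgeR adjusted p = 2.90e-06). Its relative Cisd2 rose by 1.12 ± 0.09 (SE, edgeR adjusted p = 1.54e-06), so these related genes moved in opposite directions. The 3′ UTR of Cisd2 holds a hairpin with 1 mismatched pair, and 3.16% of genes hold a 3′ hairpin when 1 mismatch is allowed. Bola3, whose 3′ UTR holds a hairpin with no mismatched pair, rose by 0.35 ± 0.13 (SE, edgeR adjusted p = 0.0300). The Bola3 call was lost in 6 of 16 alternatives. Slc25a37, the mitochondrial iron carrier mitoferrin 1, had a log2 fold change of -0.85 ± 0.17 (SE, edgeR adjusted p = 0.00128), and its relative Slc25a28 one of -0.46 ± 0.10 (SE, edgeR adjusted p = 0.00194).

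Of 12 genes of transcriptional control, 9 were higher, 2 were lower and 1 was not called, with a median log2 fold change of 0.87. Nfe2l2 (NRF2), an activator of Hmox1 and of both ferritin genes, read 377, 358 and 313 CPM with GM-CSF and 145, 130 and 129 CPM in the controls and rose by 1.38 ± 0.09 on the log2 scale (SE, edgeR adjusted p = 2.66e-07). Bach1, the repressor of the same genes that haem inactivates, read 127, 123 and 119 CPM with GM-CSF and 66.1, 67.1 and 59.2 CPM in the controls and rose by 0.94 ± 0.08 (SE, edgeR adjusted p = 2.29e-06). The messengers of the activator and of the repressor thus both rose, in every library. Keap1, which holds NRF2 protein down, fell by 0.57 ± 0.08 on the log2 scale (SE, edgeR adjusted p = 7.11e-05).

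The small MAF proteins pair with both NRF2 and BACH1, and the messengers of Maff, Mafk and Mafg all rose. Maff read 16.8, 14.8 and 10.9 CPM with GM-CSF and 1.17, 1.27 and 1.20 CPM in the controls, a rise of 3.54 ± 0.22 on the log2 scale (SE, edgeR adjusted p = 1.71e-07). Mafk rose by 0.84 and Mafg by 0.50 on the log2 scale. Mitf and Tfeb, related factors of lysosomal genes, parted, as Mitf rose by 1.57 ± 0.13 (SE, edgeR adjusted p = 1.54e-06) and Tfeb fell by 1.32 ± 0.10 on the log2 scale (SE, edgeR adjusted p = 8.95e-07).

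Spic, the factor of iron-recycling macrophages, was the gene not called. It read 1.25, 0.541 and 0.326 CPM with GM-CSF and 1.38, 0.991 and 1.30 CPM in the controls. GM-CSF replicate 1 lay within the controls, whereas replicates 2 and 3 lay below them. The log2 fold change was -0.81 ± 0.48 (SE, edgeR adjusted p = 0.166), and without GM-CSF replicate 1 it was -1.51 (edgeR adjusted p = 0.0236), at 37 reads over the 3 GM-CSF libraries.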

How the data were processed

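Poly(A) RNA was sequenced in 6 libraries (3 GM-CSF, 3 control). The authors deposited raw read counts per gene symbol. Per the submitters' processing notes, the build was mm10 and the tools were HTSeq 0.6.1p1, STAR 2.5.2a, edgeR and Trim Galore 0.4.4. The sources used here do not give annotation or strand use, so antisense reads cannot be told apart. Summary rows (no feature 7.82% to 9.72%, ambiguous 1.44% to 1.53%, not unique 18.03% to 19.6% of gene reads and summary rows together) were left out. Libraries were scaled by TMM, filtered (filterByExpr, minimum count 10, total 15) and tested with edgeR 4.0.16 in R 4.3.3. The script was tested on simulated data. SE is the log2 fold change over the square root of F. Alternatives used other scalings, filters and priors, DESeq2 1.42.0, limma 3.58.1 voom, a replicate block, no abundant genes, and each library left out. Ratios took a pseudocount of 0.5 reads and an exact permutation test over 20 assignments. Older symbols served 3 listed genes. Named beyond the 9: in each role list the 2 genes of largest change among called genes whose mean log2 CPM was 1 or more, all genes moving one way where 5 or fewer did, and the most abundant marker of each cell type. Members and lists were chosen with earlier results of these data known. A gene of the wider list is not reported here and was left out of every count of it.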

Additional observations from a re-analysis of the deposited data

How the results depend on the processing

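Over 16 alternatives, Tfrc (2.04 to 2.27), Slc40a1 (-1.65 to -1.34), Slc11a1 (-0.60 to -0.40), Slc11a2 (0.37 to 0.58) and Fth1 (0.25 to 0.53) kept direction and call (log2 fold change). The call of Ftl1 was lost with upper quartile scaling (0.11) and on leaving out single libraries (0.19 to 0.28 over the 6, adjusted p 0.0591 to 0.0843 where lost). Upper quartile scaling, which moved the median of all genes by -0.12, also reversed Ireb2 (-0.048, not called) and called Blvrb (-0.30). Set against that median, Ireb2 was 0.06 with either scaling. Hmox1 was called with limma-voom (-1.16) and without GM-CSF replicate 1 (-1.90), and ran from -1.90 to -0.31. Among the 9 genes, 3 to 4 were higher and 2 to 3 lower, and in the wider list 22 to 28 and 30 to 34. Of 59 called genes of the wider list, 51 kept call and direction in every alternative that gave a value, which was all 16 for 50 of them and 15 for Alas2. The libraries showed no clear pairing by replicate number, which does not exclude one. Same-numbered libraries deviated together with r of 0.13, 0.02 and 0.02 over genes, and GM-CSF replicates 2 and 3 did not correlate best with their own number. With the numbers as a replicate block, 3848 genes were higher and 3645 lower beside 3851 and 3660, and Hmox1 was called (-1.12, edgeR adjusted p = 0.0202). Genes under about 1 CPM, such as Spic, Alas2 and Slc22a17, rest on few reads.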

Other observations

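Besides Hmox1, 8 of 8091 genes stood at least 2-fold above both other GM-CSF libraries in GM-CSF replicate 1: Mmp19, Errfi1, Cxcl2, Havcr2, Cxcl3, Ptgs2, Lmna and Egln3. All 8 were called higher with GM-CSF than in the controls, beside 32.8% of all genes tested. They were picked for a high value in a GM-CSF library, which favours such a call, so this count is not a separate result. Hmox1 was at 142 to 162 CPM in the controls and at 42.0 and 39.3 CPM in GM-CSF replicates 2 and 3. Cxcl2 and Cxcl3 encode chemokines that draw neutrophils, and Ptgs2 the inducible cyclooxygenase. Cxcl2 read 46.8, 18.1 and 15.4 CPM in GM-CSF replicates 1, 2 and 3 and 0.959, 1.23 and 1.30 CPM in the controls. Egln3, a prolyl hydroxylase that needs iron, read 60.3, 27.4 and 28.7 CPM with GM-CSF and 6.17, 6.02 and 7.07 CPM in the controls. By the same measure 58 genes stood apart in GM-CSF replicate 3, none in replicate 2, 2 in control replicate 1 and none in the other controls. This measure was chosen after the Hmox1 values were seen.

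RefSeq promoter windows on GRCm38.p6 (250 bases before to 50 after the start) matched 6 of the 9 genes, and Hmox1, Slc40a1 and Slc11a2 had none and were not searched. Both strands were searched for the antioxidant element TGACNNNGC, the STAT element TTCNNNGAA and the E-box CACGTG, each on its own and regardless of overlap with another. None of the 6 genes held any of these letters in its windows, beside 14%, 9.55% and 8.09% of 27025 genes. That says only that these letters are not in these windows.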
